A study of Mus musculus with 4 samples.

Results

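The cells described here are Foxp3 regulatory T cells of the mouse liver, 71 of 24561 cells kept in 4 droplet single-cell libraries of hepatic nonparenchymal cells. A cell was a member when it had at least 200 genes, at most 20% mitochondrial unique molecular identifiers (UMIs, the counted RNA molecules), at least 1 UMI of Foxp3, at least 1 UMI of Cd3d, Cd3e or Cd3g, no UMI of Cd8a or Cd8b1, and at most 2 UMIs of the B cell genes Cd79a and Ms4a1 and the myeloid gene Lyz2 together. Because these genes chose the cells, their levels are given only as a description. The TAA library held 27 members, TAA+C7.5 held 14, TAA+C30 held 24 and control held 6.

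All mice were wild type, of the C57B6 strain, and 18 to 20 weeks old, with 1 mouse per group. In the TAA group, the hepatotoxin thioacetamide, which scars the liver, was injected into the peritoneum for 12 weeks. In TAA+C7.5 the same injections were joined from week 5 by celecoxib at 7.5 mg/kg by gavage, and in TAA+C30 by celecoxib at 30 mg/kg. Celecoxib inhibits cyclooxygenase-2, an enzyme of prostaglandin synthesis. The control mouse received saline and no thioacetamide. The study asked how celecoxib acts on thioacetamide-induced fibrosis. With 1 mouse per group, no test between groups was possible, and every difference between libraries is one between 4 animals without a replicate check. Most hepatocytes were removed by centrifugation, and cells were released by dissociation of the liver.

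Regulatory T cells are CD4 T cells that restrain other immune cells, and the transcription factor Foxp3 fixes and maintains their identity. They express the high-affinity interleukin-2 receptor chain Il2ra while making little interleukin-2 themselves, and they carry the inhibitory receptor Ctla4, which takes costimulatory ligands away from antigen-presenting cells. In tissues, a part of them expresses the interleukin-33 receptor Il1rl1 (ST2), the lectin receptor Klrg1 and the growth factor amphiregulin (Areg), which is known from tissue repair.

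Foxp3 lies at chrX:7573644-7595245 on the plus strand of GRCm38, the same build as mm10. The promoter windows below, from 250 bases before to 50 bases after an annotated transcription start, are those of the gene that chose the cells and of the receptor genes Ctla4 and Il2ra, whose UMIs check the label. They were taken from RefSeq (GRCm38.p6, plus strand for all 3) and are printed 5′ to 3′. Capitals mark the forkhead core TGTTTA and the NFAT core GGAAA, searched on both strands, so that the reverse complements TAAACA and TTTCC are also in capitals. NFAT is a factor of antigen receptor signalling and Foxp3 belongs to the forkhead family.
Foxp3 chrX:7579426-7579725: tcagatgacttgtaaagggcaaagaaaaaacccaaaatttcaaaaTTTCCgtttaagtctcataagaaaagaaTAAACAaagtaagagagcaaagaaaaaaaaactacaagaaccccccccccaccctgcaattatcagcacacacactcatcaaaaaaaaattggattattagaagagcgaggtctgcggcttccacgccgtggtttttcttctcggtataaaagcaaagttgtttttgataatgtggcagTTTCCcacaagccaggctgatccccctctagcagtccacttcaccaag
Ctla4 chr1:60908775-60909074: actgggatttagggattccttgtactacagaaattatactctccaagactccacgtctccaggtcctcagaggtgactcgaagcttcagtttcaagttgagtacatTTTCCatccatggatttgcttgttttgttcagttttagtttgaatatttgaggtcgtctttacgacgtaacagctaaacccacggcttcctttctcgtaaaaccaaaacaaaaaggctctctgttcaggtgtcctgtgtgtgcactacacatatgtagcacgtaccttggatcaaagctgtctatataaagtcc
Il2ra chr2:11642542-11642841: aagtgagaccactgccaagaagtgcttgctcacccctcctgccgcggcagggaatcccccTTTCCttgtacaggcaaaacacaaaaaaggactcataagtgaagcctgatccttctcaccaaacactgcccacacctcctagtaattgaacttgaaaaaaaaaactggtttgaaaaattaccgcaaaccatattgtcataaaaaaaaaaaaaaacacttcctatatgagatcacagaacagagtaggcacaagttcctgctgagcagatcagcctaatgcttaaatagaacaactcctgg
The printed Foxp3 window held 1 forkhead core and 2 NFAT cores, and the Ctla4 and Il2ra windows held 1 NFAT core each and no forkhead core. A second annotated Foxp3 window, chrX:7580233-7580532, is not printed. It held 0 forkhead cores and 1 NFAT core, so the forkhead core was not shared by both Foxp3 windows. Of 32851 windows of the same length, 13.4% held the forkhead core and 61.3% the NFAT core. A match describes the letters of the window only.

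Foxp3 was detected sparsely. Of 84 kept cells with a Foxp3 UMI, 4 had no Cd3 UMI, 6 had a Cd8 UMI and 3 were over the limit of B cell and Lyz2 UMIs. Among the 71 members, 36 had 1 Foxp3 UMI, 15 had 2, 9 had 3 and 11 had at least 4. As a description of the chosen cells, Foxp3 stood at 402, 548, 478 and 565 CPM (the UMIs of a gene over all UMIs of the summed profile, scaled to a common total) in TAA, TAA+C7.5, TAA+C30 and control. Of the members, 63 had no B cell or Lyz2 UMI, 6 had 1 and 2 had 2, just inside the limit. Foxp3 UMIs were not found in B cells: 0 of 1409, 1217, 683 and 906 B cells of the TAA, TAA+C7.5, TAA+C30 and control libraries had one, which allows shares of up to 0.213%, 0.247%, 0.439% and 0.331% (3 counts of the cells). Here and below, intervals and limits cover counting error only.

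The label was checked against genes that the choice did not use. Ctla4 was detected in 63 members and Ikzf2, which encodes the regulatory T cell factor Helios, in 55. Both were detected in 50 of the 71 members and in 29 of 506 conventional CD4 T cells, and neither in 3 members. Of the 36 members with a single Foxp3 UMI, 34 had a UMI of Ctla4 or Ikzf2. Cd4 was detected in only 34 of the 71 members.

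Markers of other cells were low. No UMI of Trdc, Tcrg-C1, Tcrg-C2 or Tcrg-C4, which mark gamma delta T cells, was found in any member. The natural killer list gave 1 UMI in TAA members and 0 in the other libraries, with 5 of its 6 genes at 0 in TAA. The myeloid list, without the gate gene Lyz2, gave 17, 3, 20 and 0 UMIs in members of TAA, TAA+C7.5, TAA+C30 and control, with Csf1r and Adgre1 at 0 in all 4. The endothelial list of 6 genes summed to 102, 274, 125 and 377 CPM in the same order. More than 2 endothelial UMIs were present in 1, 1, 3 and 2 members. None of the members was called a doublet, and none shared its barcode between libraries, where 9 to 14 barcodes per pair of libraries were shared among all cells.

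The libraries differed in depth. Kept cells numbered 6512, 6083, 6178 and 5788 in TAA, TAA+C7.5, TAA+C30 and control, with medians of 4632.5, 1994, 3138 and 3396.5 UMIs. Members had medians of 4799, 3047, 3423 and 6080 UMIs and of 3.25%, 2.57%, 2.44% and 5.03% mitochondrial UMIs. Their summed profiles held 136758, 40173, 96134 and 37168 UMIs, so the TAA+C7.5 and control profiles were the least precise.

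Foxp3 cells were a small share of T cells in every library, and no order of the groups held under all ways of counting. Among T cells chosen by the same gates without the Foxp3 condition, the share was 5.13% in TAA (27 of 526 cells, exact Clopper-Pearson 95% interval 3.41 to 7.38%), 1.74% in TAA+C7.5 (14 of 805, 0.954 to 2.90%), 3.79% in TAA+C30 (24 of 633, 2.44 to 5.59%) and 1.77% in control (6 of 339, 0.652 to 3.81%). The TAA+C7.5 interval lay below that of TAA, while the TAA+C30 and control intervals overlapped that of TAA. Over Foxp3 and conventional CD4 T cells together, a denominator chosen after the first shares were seen, the shares were 14.0%, 9.86%, 15.8% and 6.67%, and all 4 intervals overlapped. When each cell was thinned to 1000 UMIs and shallower cells were left out, the share of T cells without Cd8 UMIs was 1.24% in TAA, 0.673% in TAA+C7.5, 1.61% in TAA+C30 and 1.03% in control, and again all intervals overlapped. The gates were applied again to the thinned counts, so T cells that lost their Cd8 UMIs could enter the denominators of 565, 891, 684 and 291 cells. After thinning 7, 6, 11 and 3 cells still had a Foxp3 UMI, and TAA+C30 in place of TAA had the highest share. TAA+C7.5 lay below TAA and TAA+C30 in all 3 ways of counting.

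**Figure D1:**
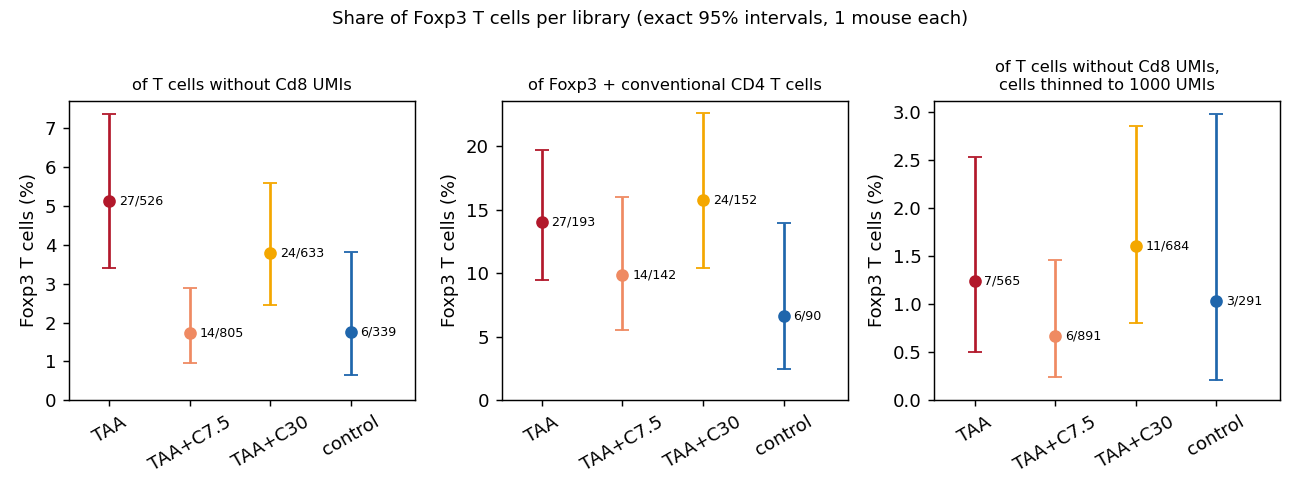
Share of Foxp3 T cells in each library (percent, 1 mouse each), with exact 95% intervals and the cell counts beside each point, for 2 denominators and for cells thinned to 1000 UMIs. The TAA share is the highest among T cells without Cd8 UMIs (5.13%), and the 4 intervals overlap in the other 2 panels.

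To describe what set these cells apart, their summed UMIs were compared within each mouse with conventional CD4 T cells, chosen by the same gates with no Foxp3 UMI and at least 1 Cd4 UMI (166, 128, 128 and 84 cells in TAA, TAA+C7.5, TAA+C30 and control). The 4 mice served as replicates of this contrast, although each had another treatment. Regulatory T cells without a detected Foxp3 UMI fell among the conventional cells. By edgeR's quasi-likelihood test with the library as a block, at a Benjamini-Hochberg adjusted p under 0.05 and at least 2-fold, 95 of 7344 genes were higher in Foxp3 T cells (1.29%) and 204 were lower (2.78%), 4.07% in either direction. With profiles scaled by library totals instead of TMM, 168 genes were higher and 115 lower. The median log2 fold change of all genes was -0.16 under TMM and 0.08 under totals. Of the genes tested, 87 gave no UMI in Foxp3 T cells and could only come out lower. DESeq2 called 74 genes higher and 51 lower.

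The regulatory T cell core list had 19 of 22 members with enough UMIs to be tested, after low counts were left out, and 14 were called higher and none lower. Its median log2 fold change was 1.92, beside -0.16 for all genes. The list had 11 to 14 genes called higher when any 1 library was left out, with 11 without TAA. With each cell thinned to 1000 UMIs, only 11 core genes could be tested, and 5 were called higher and 0 lower. With a Cd4 UMI demanded of the Foxp3 cells too, 12 were called.

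Ikzf2 stood at 1338, 1045, 1071 and 3767 CPM in Foxp3 T cells of TAA, TAA+C7.5, TAA+C30 and control, and at 16.3, 89.6, 107 and 40.8 CPM in conventional CD4 T cells. Every Foxp3 value lay above every conventional one, and the log2 fold change was 4.56 ± 0.23 (SE, adjusted p = 1.4e-80, edgeR's quasi-likelihood test). Ctla4 stood at 1287, 1792, 884 and 1829.5 CPM in Foxp3 T cells, against 207, 191, 297 and 76.8 CPM in conventional cells. Here too the populations did not overlap (log2 fold change 2.62 ± 0.21, adjusted p = 8e-34, edgeR). In CD8 T cells, the highest Ctla4 value was 124 CPM and the highest Ikzf2 value 280.4 CPM.

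Receptors of the tumour necrosis factor family were among the genes called higher. Tnfrsf9 (4-1BB) had 263, 124, 177 and 80.7 CPM in Foxp3 T cells of TAA, TAA+C7.5, TAA+C30 and control, against 4.35, 0, 14.7 and 4.80 CPM in conventional cells (log2 fold change 4.59 ± 0.48, adjusted p = 9.2e-19, edgeR). Tnfrsf4 (OX40) had 1163, 672, 531 and 699.5 CPM, against 134, 108, 126 and 26.4 CPM (log2 fold change 2.73 ± 0.23), but 1 TAA cell held 31.9% of its 263 UMIs in members. Neither gene overlapped between the populations. Tnfrsf18 (GITR), the costimulatory adaptor Traf1 and the NF-kB subunit Rel were also called higher, so that 5 of the 13 tested genes of the tumour necrosis factor receptor and NF-kB list were called higher and none lower. Rel fell just short of 2-fold without the TAA library (log2 fold change 0.99). The receptor gene Tnfrsf1b was not called, though with library totals it was called higher. The other NF-kB genes tested, among them Nfkb1, Nfkb2, Relb and Tnfaip3, were not called.

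Lrrc32 (GARP), which holds latent TGF-beta at the surface of regulatory T cells, had 183, 299, 93.6 and 323 CPM in Foxp3 T cells, against 3.26, 2.99, 10.5 and 28.8 CPM in conventional cells (log2 fold change 4.09 ± 0.43). Itgae (CD103), an integrin chain that binds E-cadherin, had 161, 124, 135 and 108 CPM, against 7.60, 5.98, 6.31 and 12.0 CPM (3.84 ± 0.49 on the log2 scale). Both were higher in all 4 libraries without overlap. Cd83, Dusp4 and Capg were likewise called higher with 4 of 4 libraries above 0. The ectoenzyme gene Nt5e (CD73) and Izumo1r (folate receptor 4) were called, but without the TAA library Nt5e had an adjusted p of 0.0912 and Izumo1r one of 0.202 (edgeR), and Nt5e had 0.17 by DESeq2 and 0.0734 with no library block. Of the 9 tested genes of the suppressive list, Ctla4, Gzmb, Areg, Lrrc32 and Nt5e were called higher and none lower.

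Il2ra was called higher (log2 fold change 2.73 ± 0.40, adjusted p = 1.4e-09, edgeR), and the control library gave no direction. It had 197, 99.6 and 270.5 CPM in Foxp3 T cells of TAA, TAA+C7.5 and TAA+C30, and 0 UMIs in control, against 19.6, 23.9, 21.0 and 16.8 CPM in conventional cells. In the small control profile 3 UMIs would stand at 80.7 CPM, above the conventional value. It was detected in 10 of 27, 4 of 14, 11 of 24 and 0 of 6 members. The share of 0 among 6 control cells has an exact upper limit of 45.9%, so an absence in the control liver was not detectable at this number of cells. Of the 14 tested genes of the interleukin-2 axis, Il2ra was the single one called higher. The survival gene Bcl2 and, less firmly, Socs1 and Socs3, which dampen cytokine signalling, were called lower. Socs1 and Socs3 lost their calls with library totals, by DESeq2, with no library block and without TAA+C7.5, TAA+C30 or control (adjusted p 0.0609 to 0.244 for both), and Bcl2 kept its call in all of these. Il2 itself gave no UMI in Foxp3 T cells and 40 UMIs in conventional cells, and missed the threshold (adjusted p = 0.0504, edgeR).

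Other core genes were not called. Icos, a costimulatory receptor, had 1441, 996, 1217 and 1479.8 CPM in Foxp3 T cells and 794, 639, 756 and 631 CPM in conventional cells, a log2 fold change of 0.58 ± 0.19 that missed the 2-fold limit. Il2rb, Nrp1, Socs2 and Entpd1 (CD39) had log2 fold changes of 0.12, 0.92, 0.49 and 0.44, all with adjusted p above the threshold by edgeR.

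**Figure D2:**
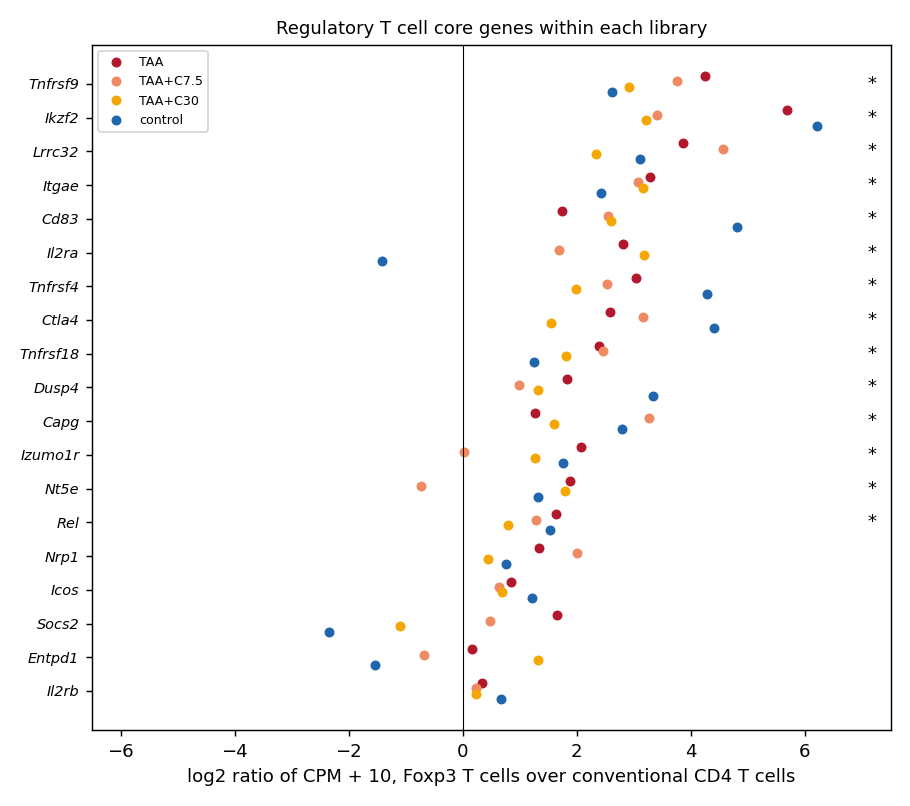
Log2 ratio of CPM (10 CPM added to both sides) of Foxp3 T cells over conventional CD4 T cells within each of the 4 libraries, for the 19 tested regulatory T cell core genes, with an asterisk where edgeR called the gene. The 14 called genes lie to the right of 0 in all libraries except Il2ra in control, where -1.42 rests on 0 UMIs, and Nt5e in TAA+C7.5.

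The tissue or effector list was mixed. Of 30 genes 22 were tested, 8 were called higher and 3 lower, and its median log2 fold change was 0.64, beside -0.16 for all genes. Called higher and lower were 11 and 2 with library totals, and 4 and 0 with no library block. With a Cd4 UMI needed they were 4 and 0 of 21 tested, and with cells thinned to 1000 UMIs 3 and 0 of 11. Klrg1 had 65.8, 199, 125 and 161 CPM in Foxp3 T cells of TAA, TAA+C7.5, TAA+C30 and control, against 4.35, 5.98, 2.10 and 2.40 CPM in conventional cells (log2 fold change 4.59 ± 0.59, adjusted p = 3.2e-12, edgeR). Il1rl1 had 29.2, 597, 249.7 and 592 CPM, against 9.78, 35.9, 29.5 and 0 CPM (3.61 ± 0.36 on the log2 scale). Klrg1 did not overlap between the populations, whereas the Foxp3 value of Il1rl1 in TAA lay below the conventional values of TAA+C7.5 and TAA+C30.

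Areg had 622, 199, 509.7 and 323 CPM in Foxp3 T cells, against 34.8, 114, 239.9 and 55.2 CPM in conventional cells. Within each library it was higher in Foxp3 T cells, although the ranges overlapped (log2 fold change 1.98 ± 0.26), and the call was lost when Foxp3 cells also needed a Cd4 UMI and with no library block (adjusted p = 0.0683, edgeR). The cytotoxic granule gene Gzmb had 263, 99.6, 249.7 and 53.8 CPM, against 22.8, 8.96, 21.0 and 86.3 CPM. The control value of 53.8 CPM, below the conventional one, rests on 2 UMIs of 1 cell. The log2 fold change of Gzmb was 2.46 ± 0.35 with all libraries and 3.36 without control. The calcium-binding genes S100a6 and S100a4 were called higher in 4 of 4 libraries, by 2.05 and 1.40 on the log2 scale (S100a4 with an adjusted p of 0.131 with no library block, edgeR). The transcription factor genes Batf and Nfil3 were called, but Batf lost its call without TAA+C7.5, TAA+C30 or control (adjusted p 0.0538 to 0.217, edgeR) and Nfil3 without TAA or control (0.528 and 0.067). The 3 genes called lower were Cxcr6, Tbx21 and the transcription factor gene Bhlhe40, which lost its call without TAA (adjusted p = 0.0758, edgeR) or TAA+C30 (0.36). Bhlhe40 was not called with library totals either. None of the 3 was called lower with no library block or with a Cd4 UMI needed.

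Some other tissue genes were not called. Gata3, a factor linked to ST2 expression, had a log2 fold change of -0.14 ± 0.30, Maf one of 0.54 ± 0.20 and Cd44 one of -0.02 ± 0.26. Il10, the gene of an anti-inflammatory cytokine, was detected in 5, 0, 2 and 0 members of TAA, TAA+C7.5, TAA+C30 and control and was too low to test here. Ccr8 was detected in 4 members, and Tbx21 and Pparg in none.

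Genes of the tissue list and of the lymphoid list were each found in many members. At least 1 UMI of Klrg1, Il1rl1, Areg or Itgae was found in 50 of 71 members, 18 in TAA, 8 in TAA+C7.5, 19 in TAA+C30 and 5 in control. Areg was found in 35 members and Itgae in 24. Klrg1 and Il1rl1 were found together in 12 cells, out of 16 with Klrg1 and 21 with Il1rl1. Of the lymphoid list, S1pr1 was found in 45 members, Lef1 in 20 and Ccr7 in 17.

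Genes of resting T cells were lower. All 14 genes of the resting or lymphoid list were tested, 9 were called lower and none higher, with a median log2 fold change of -1.71 beside -0.16 for all genes. Tcf7, a factor of naive and memory T cells, had 73.1, 49.8, 62.4 and 296 CPM in Foxp3 T cells of TAA, TAA+C7.5, TAA+C30 and control, against 349.8, 469, 276 and 573 CPM in conventional cells (log2 fold change -2.23 ± 0.29, adjusted p = 1.7e-12, edgeR). Bcl2 had 73.1, 24.9, 31.2 and 0 CPM, against 222, 257, 196 and 350.2 CPM (-2.68 ± 0.36 on the log2 scale). Bcl2 did not overlap between the populations, while the control Foxp3 value of Tcf7 lay above the TAA+C30 conventional value.

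Bach2, a repressor that keeps T cells quiescent, gave 2 UMIs in all Foxp3 T cells, and its 4 conventional values ran from 44.2 to 119.9 CPM. Dapl1, Igfbp4, Satb1, Lef1 and Foxp1 were called lower in 4 of 4 libraries, by log2 fold changes between -3.90 and -1.48 (Satb1 with an adjusted p of 0.115 by DESeq2). Id3 was called lower in 3 of 4 libraries, and without TAA its adjusted p was 0.424 and without TAA+C7.5 it was 0.0859 (edgeR). The recirculation receptor gene S1pr1 and the interleukin-7 receptor gene Il7r were not called. S1pr1 and Il7r had log2 fold changes of -0.49 and -0.82, and Ccr7 had -0.97 ± 0.25, just within the 2-fold limit.

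Effector cytokines of conventional T cells were at or near 0. The Foxp3 T cells gave no UMI of Il17a, Ifng or Il22, while conventional cells gave 342, 152, 579 and 86.3 CPM of Il17a in TAA, TAA+C7.5, TAA+C30 and control. Against 3 counts over all Foxp3 T cells, Il17a was at least 32.6-fold lower, Ifng at least 12.5-fold and Il22 at least 3.52-fold. The Il17a UMIs of conventional cells came from 22, 5, 19 and 4 cells. Il22 lost its call without TAA+C30 (adjusted p = 0.147, edgeR). Cd40lg, the helper signal to B cells, had 7.31, 0, 41.6 and 26.9 CPM in Foxp3 T cells, against 147, 62.8, 109 and 125 CPM, without overlap (log2 fold change -2.81 ± 0.50). Of 15 helper genes 9 passed the filter on low counts, 5 of them with 0 UMIs in Foxp3 T cells and so only through the conventional cells, and the number called lower (5, none higher) therefore says nothing of the list. The fifth called, Tbx21, gave no UMI in Foxp3 T cells (at least 2.31-fold lower) and lost its call when any 1 library was left out.

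**Figure D3:**
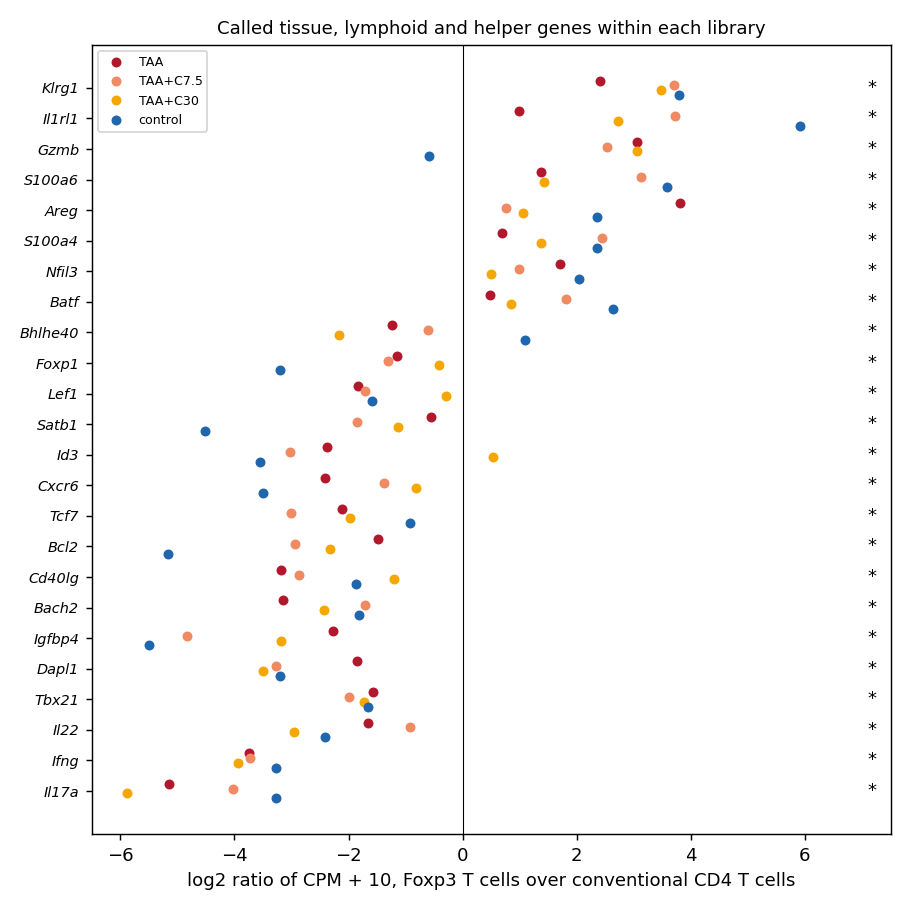
Log2 ratio of CPM (10 CPM added to both sides) of Foxp3 T cells over conventional CD4 T cells within each of the 4 libraries, for the called genes of the tissue and lymphoid lists and for Il17a, Ifng, Il22 and Cd40lg. Klrg1 and Il1rl1 lie to the right and Il17a and Ifng to the left of 0 in every library, Gzmb and Bhlhe40 have control on the other side of 0, and Id3 has TAA+C30 there.

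Homing receptors divided. The monocyte-type chemokine receptor Ccr2 had 453, 448, 374 and 161 CPM in Foxp3 T cells of TAA, TAA+C7.5, TAA+C30 and control, against 119, 56.8, 147 and 60.0 CPM in conventional cells. Its populations did not overlap (log2 fold change 1.65 ± 0.26, adjusted p = 2.6e-08, edgeR). Cxcr6, a receptor of liver-resident lymphocytes, had 29.2, 24.9, 104 and 0 CPM, against 199, 80.7, 192 and 103 CPM, a log2 fold change of -2.01 ± 0.39 (adjusted p = 0.0881 with no library block, edgeR). The TAA+C30 value of Cxcr6 in Foxp3 T cells lay above the lowest conventional value. Of 17 homing genes tested, Ccr2 and Itgae were called higher and Cxcr6 lower.

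Further genes led the contrast. Among the 15 highest log2 fold changes with the same sign in 4 of 4 libraries were Neb (3.92), Myo1e (2.83), Dst (2.75), Itgav (2.68), Cxcl10 (2.61) and Sema4b (2.44) beside the list genes above. Itgav encodes an integrin chain that takes part in TGF-beta activation, and its product pairs with several beta chains. Cxcl10, an interferon-induced chemokine, was found in 12 members, 1 of which held 37.0% of its 73 UMIs, and its log2 fold change was -2.42 when Foxp3 cells also needed a Cd4 UMI. Among the 10 lowest were Itga1, Sox4, Ccnd1, Sema4a, Tdrp, Klrk1 and Cd93 beside Il17a, Ifng and Il22. All 10 gave no UMI in Foxp3 T cells, and the bounds of these 7 ran from at least 2.65-fold (Cd93) to at least 5.10-fold (Itga1) lower. Klrk1 lost its call without TAA+C30 and Cd93 without control (adjusted p 0.0659 and 0.0691, edgeR). With no library block Itga1, Ccnd1, Klrk1, Cd93 and Il22 lost theirs (0.056 to 0.345), and DESeq2 gave no adjusted p for any of these 7, for Il22, Tbx21 or Myo1e.

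Endothelial RNA was uneven in the conventional cells. More than 2 endothelial UMIs were present in 7, 3, 2 and 21 conventional cells of TAA, TAA+C7.5, TAA+C30 and control, and the list summed to 102, 126, 149 and 1286 CPM there. With such cells left out of both populations, a choice made after seeing the data, 87 genes were higher and 167 lower, and Ccnd1, Tbx21, Id3, Batf and Nfil3 were no longer called. The core list then had 15 genes called higher. RNA of other cells differed too. The myeloid list without Lyz2 summed to 124, 74.7, 208 and 0 CPM in Foxp3 T cells of TAA, TAA+C7.5, TAA+C30 and control, against 337, 71.7, 421 and 74.4 CPM in conventional cells, and S100a8 and S100a9 were called lower. The hepatocyte list summed to 51.2, 49.8, 0 and 108 CPM, against 416, 17.9, 6.31 and 182 CPM, and Alb and Ttr were called lower, as was the endothelial gene Dnase1l3. Their part in the other calls was not tested.

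Some stress genes were lower in Foxp3 T cells. Hspa1a, an inducible heat shock gene, had 0, 174, 312 and 0 CPM in Foxp3 T cells of TAA, TAA+C7.5, TAA+C30 and control, against 213, 577, 621 and 369 CPM in conventional cells (log2 fold change -2.25 ± 0.28). It was lower within each library, although the ranges overlapped, and it lost its call by DESeq2 (adjusted p = 0.102) and with no library block (0.126). Hspa1b and Dnajb1 were also called lower, 3 of 10 stress genes in all, and Dnajb1 lost its call without TAA+C7.5 and with library totals. With no library block 1 of 10 was called lower. Hspa1a and Hspa1b are near-identical genes, so the split of their reads is uncertain. The immediate early genes Fos, Fosb and Jun were called lower among 12 tested genes of the antigen receptor response, and none was called higher. Jun kept its call in all alternatives, whereas Fos and Fosb lost theirs with library totals, by DESeq2, with filterByExpr, with no library block and without TAA+C30. Cell cycle genes were not called in either direction (0 of 15 tested; over all 7344 genes 1074 had an unadjusted p under 0.05), but the count changed with the cells left out. Called lower were 5 of 13 without TAA+C30 and 6 of 14 with cells of over 2 endothelial UMIs left out. With cells that had any B cell or Lyz2 UMI left out of both populations, 9 of 13 were called lower. The counts were 4 of 14 with a Cd4 UMI needed and 1 of 14 with at least 2 Foxp3 UMIs.

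The same profiles were set against CD8 T cells of each library (491, 1198, 712 and 211 cells in TAA, TAA+C7.5, TAA+C30 and control). By edgeR's quasi-likelihood test, 191 of 10849 genes were higher (1.76%) and 478 lower (4.41%), 6.17% in either direction, and with library totals 389 were higher and 197 lower. The median log2 fold change of all genes was -0.37 under TMM and 0.06 under totals. Of the genes tested, 942 gave no UMI in Foxp3 T cells. They passed the filter only through CD8 T cells and could only come out lower. With these genes set to their bounds against 3 counts (at most 0), the median under TMM was -0.22. The core list had 18 of 21 tested genes called higher and none lower, with a median of 2.78. The resting or lymphoid list had 10 of 14 called lower.

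Il1rl1 led this contrast with a log2 fold change of 7.52 ± 0.52, against values of at most 2.08 CPM in CD8 T cells. Tnfrsf4 (6.58), Lrrc32 (5.14), Areg (5.11), Nav2 (4.82), Capg (4.46) and Tiam1 (4.22) followed. Ass1, which encodes the arginine-forming enzyme argininosuccinate synthase, had 322, 498, 593 and 349.8 CPM in Foxp3 T cells of TAA, TAA+C7.5, TAA+C30 and control, against 31.5, 21.5, 23.6 and 22.6 CPM in CD8 T cells (3.65 ± 0.26 on the log2 scale). It was also called higher against conventional CD4 T cells, by 2.83-fold. Icos was called against CD8 T cells (2.79 ± 0.19) and not against conventional CD4 T cells.

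The genes lowest against CD8 T cells gave no UMI in Foxp3 T cells. Gzma, a granule protease, gave no UMI in Foxp3 T cells, against 807, 583, 1449.7 and 1042 CPM in CD8 T cells, at least 95.7-fold lower. Ifng, Klrk1, Klrc1, Klre1, Gzmk and Klrc2 also gave no UMI and were at least 18.5-fold, 13.1-fold, 11.7-fold, 10.9-fold, 11.5-fold and 8.78-fold lower. Gzmb was lower than in CD8 T cells (-1.58 ± 0.24 on the log2 scale; adjusted p = 0.0588 with no library block, edgeR) while higher than in conventional CD4 T cells. Prf1, which encodes perforin, gave no UMI and was at least 6.82-fold lower.

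Between libraries the counts of members limit every statement, and no p-value was made. For single genes, a log2 ratio of CPM with 10 CPM added to both sides was used, at least 15 UMIs were needed in the higher library, and a gene was named only with at least 8 cells there, so that no gene could be named as lower than in control. Genes were named for the 3 highest and 3 lowest ratios. Their intervals and bounds come from the same UMIs, without allowance for this choice or for UMIs of the same cell. Of 1824 genes measured, 28.6% were at least 2-fold higher and 3.23% at least 2-fold lower in the 3 pooled TAA libraries than in control. The pooled profile was the deeper of the 2, so the 15 UMIs needed stood at a lower CPM there. Any further part of depth in this imbalance was not tested. Among genes with at least 10 UMIs in both sides together, a rule that does not look at which side is higher, 18.4% were higher and 14.0% lower.

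Prkca, which encodes protein kinase C alpha, had 299.8, 124 and 187 CPM in TAA, TAA+C7.5 and TAA+C30, and 0 UMIs in control. It was at least 2.90-fold higher in the pooled TAA libraries than in control, counted against 3 UMIs, and its log2 ratio in conventional CD4 T cells was 1.04. On the same count of 3 UMIs, Il2ra was at least 2.59-fold higher and Gadd45b, a stress and NF-kB target gene, at least 2.40-fold. In conventional CD4 T cells the log2 ratio of Il2ra was 0.20 and that of Gadd45b 1.02. All 3 genes had 0 UMIs in the 6 control cells. The exact 95% intervals of their ratios, which allow for the counting error of the TAA side too, began lower, at 2.29 for Prkca, 2.04 for Il2ra and 1.89 for Gadd45b. In TAA alone against control (22.3% higher and 6.5% lower of 1061 genes), Prkca, Pmepa1 and Il2ra led. Among genes with at least 10 UMIs in both sides together, 17.7% were higher and 15.1% lower.

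Interferon genes differed in level between libraries. The 12 genes summed to 5257, 2166, 3454 and 1291 CPM in Foxp3 T cells of TAA, TAA+C7.5, TAA+C30 and control, from 719, 87, 332 and 48 UMIs. The exact Poisson intervals did not overlap: 4880 to 5656 CPM in TAA, 1735 to 2671 CPM in TAA+C7.5, 3092 to 3846 CPM in TAA+C30 and 952 to 1712 CPM in control. They treat UMIs as independent and leave out the spread between cells and between mice, so they do not separate the groups. The cell with most held 12.9%, 21.8%, 12.7% and 29.2% of these UMIs. Ifi27l2a, an interferon-induced mitochondrial protein gene, made up most of them, with 4212, 1792, 2881 and 1076 CPM, against 1286, 885, 1111 and 367 CPM in conventional CD4 T cells. TAA was highest and control lowest in both populations. It was the single interferon gene called between the populations (log2 fold change 1.16 ± 0.19, 1 of 11 tested, 2.24-fold), and its call was lost with no library block (adjusted p = 0.151, edgeR) and with at least 2 Foxp3 UMIs (0.14).

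Of 9 interferon genes measured in the pooled TAA libraries against control, 6 were at least 2-fold higher and none lower, beside 18.4% of all genes higher. Their median log2 ratio was 1.65 in Foxp3 T cells, 0.03 over all genes, and 0.26 for the same genes in conventional CD4 T cells. In TAA+C7.5 against TAA, 5 of 6 were at least 2-fold lower, beside 16.1% of all genes lower, with a median of -1.36 in Foxp3 T cells and -0.66 in conventional cells. In TAA+C30 against TAA, 2 of 8 were at least 2-fold lower, beside 9.35% of all genes lower, with a median of -0.56.

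Isg15, a ubiquitin-like interferon product, had 197, 49.8, 20.8 and 0 CPM in members of TAA, TAA+C7.5, TAA+C30 and control. It came from 8, 1, 2 and 0 cells, and 1 TAA cell held 38.7% of its 31 UMIs. It was among the 3 genes named as lower in TAA+C30 than in TAA, with a ratio of 0.105 (exact 95% interval 0.0121 to 0.419), and its log2 ratio in conventional cells was -0.14. The others, Hexim1 and Alkbh1, had log2 ratios of -2.47 and -2.12.

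In TAA+C30 against TAA, 4.69% of 1513 genes were at least 2-fold higher and 7.87% lower. Among genes with at least 10 UMIs in both sides together, the shares were 6.9% and 9.35%. Hspa1a had 312 CPM from 9 TAA+C30 cells and 0 UMIs in TAA, at least 14.2-fold higher in TAA+C30. Its near-identical neighbour Hspa1b did not differ so, with 166 CPM from 16 UMIs in TAA+C30 and 168 CPM from 23 UMIs in TAA, and how their shared reads were split is uncertain. In conventional CD4 T cells Hspa1a had 621 CPM in TAA+C30 and 213 CPM in TAA. The annexin gene Anxa2 had 270.5 CPM in TAA+C30 and 29.2 CPM in TAA, a log2 ratio of 2.84. Il1rl1 had 249.7 CPM and 29.2 CPM, a ratio of 8.54 (exact 95% interval 2.93 to 33.8) from 9 of 24 and 3 of 27 cells, and its log2 ratio in conventional cells was 1.00. TAA had the lowest Il1rl1 level of the 4 libraries, and TAA+C7.5 with 597 CPM and control with 592 CPM, from 3 of 6 cells, had the highest. Thinned to 1000 UMIs, Il1rl1 was found in 2 of 27, 3 of 13, 5 of 23 and 1 of 6 members of TAA, TAA+C7.5, TAA+C30 and control, and all intervals overlapped. Thinned to 1500 UMIs, it was found in 0 of 27, 6 of 12, 5 of 20 and 3 of 6 members. Each thinning is 1 random draw, and no order is read from it.

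In TAA+C7.5 against TAA, 3.0% of 1066 genes were at least 2-fold higher and 21.8% lower. The TAA profile was the deeper of the 2, and the part of depth was not tested. The proteasome subunit gene Psmb4, the actin-binding gene Tagln2 and the chromatin remodeller gene Chd7 led the higher genes, with log2 ratios of 1.77, 1.66 and 1.65 and of -0.10, -0.08 and -0.61 in conventional CD4 T cells. Apoe, Sp110 and Aff1 led the lower genes, each with 0 UMIs in TAA+C7.5 and 23, 21 and 19 UMIs in TAA. Apoe, an abundant product of hepatocytes and macrophages, moved likewise in conventional cells (log2 ratio -3.71), and Sp110 and Aff1 had ratios of 0.02 and 0.06 there. The myeloid list gave 3 UMIs in TAA+C7.5 members and 17 UMIs in TAA members and the hepatocyte list 2 and 7 UMIs, and their part in Apoe was not tested.

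Against control, TAA+C7.5 was at least 2-fold higher in 9.94% of 483 genes and lower in 12.2%, and Tent5a, Sept1 and Sh2d2a were named as higher. TAA+C30 was higher in 19.4% of 839 genes and lower in 8.1%, led by Hspa1a, Il2ra and H2afj. Among genes with at least 10 UMIs in both sides together, 11.6% were higher and 14.9% lower in TAA+C7.5. In TAA+C30 these shares were 13.8% and 15.6%. All comparisons with control rest on the same 6 cells, and both celecoxib libraries were set against the same TAA cells.

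Of the core list, 4 of 19 measured genes were at least 2-fold higher in the pooled TAA libraries than in control (Il2ra, Tnfrsf18, Tnfrsf9 and Socs2) and 3 lower (Ikzf2, Il2rb and Cd83), beside 18.4% and 14.0% of all genes, with a median log2 ratio of 0.19. In TAA+C7.5 against TAA, 1 of 18 was higher and 4 were lower, beside 10.5% and 16.1% of all genes. In TAA+C30 against TAA, 1 of 19 was higher and 2 were lower, beside 6.9% and 9.35%. Of the suppressive molecules, 3 of 9 were higher in the pooled TAA libraries and none lower, beside the same 18.4% and 14.0%.

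Proliferation rested on few cells. Mki67, a marker of dividing cells, was detected in 0, 1, 5 and 1 members of TAA, TAA+C7.5, TAA+C30 and control. The 15 cell cycle genes summed to 921, 2514, 3901 and 1022 CPM, but 1 cell held 46.9% of the 375 UMIs of TAA+C30 and 1 cell held 58.4% of the 101 UMIs of TAA+C7.5. Of 8 cell cycle genes measured in TAA+C30 against TAA, 6 were at least 2-fold higher, beside 6.9% of all genes.

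Prostanoid genes, which include the receptors of the products of cyclooxygenases, were scarcely detected. The list of 12 gave 12, 7, 10 and 7 UMIs in Foxp3 T cells of TAA, TAA+C7.5, TAA+C30 and control, with Ptger1, Ptger3, Ptgdr, Ptgdr2 and Ptgfr at 0 in all 4. Ptger4, a prostaglandin E2 receptor gene, had 29.2, 149, 72.8 and 135 CPM, against 92.3, 102, 112 and 60.0 CPM in conventional CD4 T cells. From 4, 6, 7 and 5 UMIs, its log2 ratio was 2.02 in TAA+C7.5 against TAA and 1.08 in TAA+C30 against TAA. The ranges overlapped, and it was not called between the populations (log2 fold change -0.54 ± 0.37, edgeR).

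**Figure D4:**
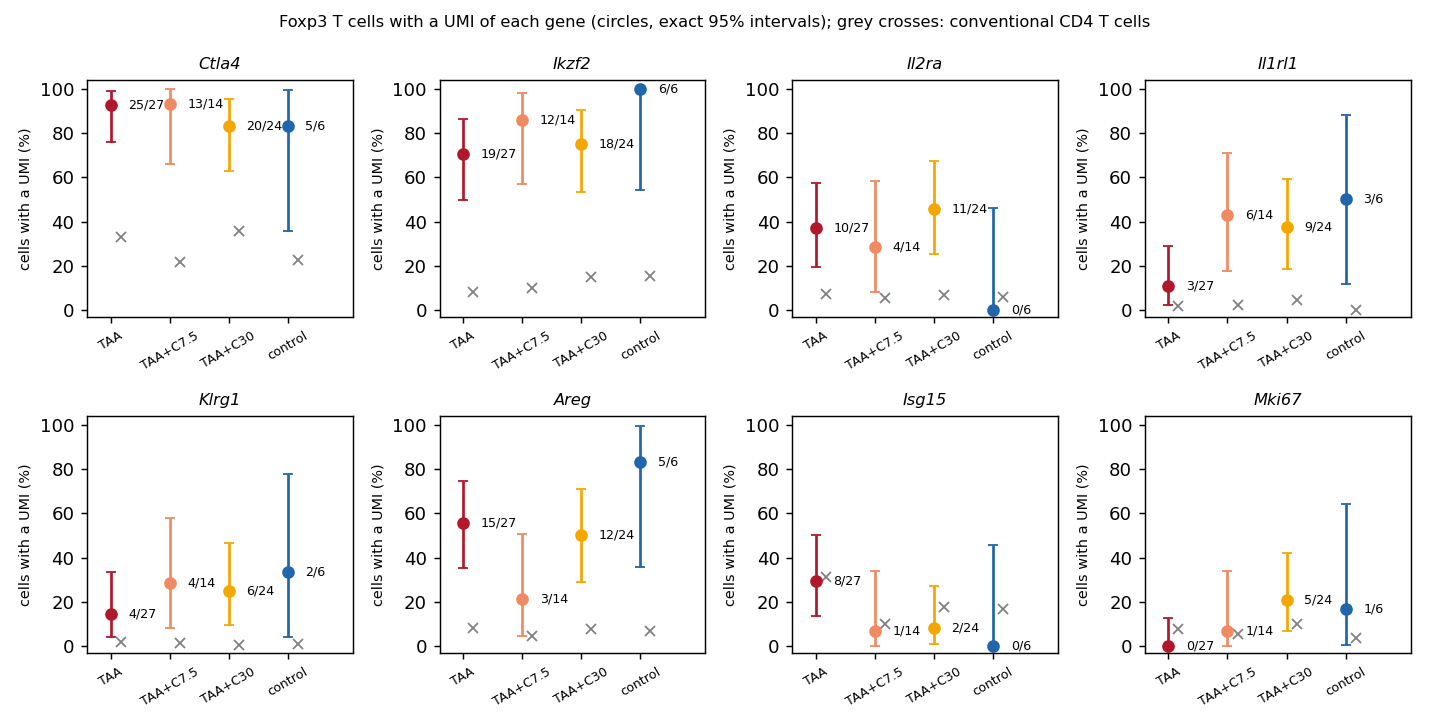
Share of Foxp3 T cells with at least 1 UMI of 8 genes in each library (percent, circles with exact 95% intervals and cell counts), with the share in conventional CD4 T cells of the same library as grey crosses. Ctla4 and Ikzf2 are found in most Foxp3 T cells of every library, Il2ra in 0 of 6 control cells, Isg15 in 8 of 27 TAA cells and Mki67 in 5 of 24 TAA+C30 cells.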

How the data were processed

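Each library was made from the hepatic nonparenchymal cells of 1 mouse, with droplet capture of the 3 prime end of transcripts, per the labels' protocols. The authors deposited raw UMI counts of every gene in each barcode, computed by Cell Ranger 3.1.0 against mm10, per the submitters' processing notes. The cell calling settings and the annotation are not given in the sources used here. Samples were grouped by their treatment labels, 1 per group.

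Counts were summed per library and population, and shown as CPM of the population's UMIs. The contrasts between populations used edgeR 4.0.16 (glmQLFit and glmQLFTest, TMM, the library as a block) on genes with at least 30 UMIs over the 8 sums, with Benjamini-Hochberg adjustment over all genes tested. The genes of the gates were not tested. Each SE was derived from the test, as the size of the log2 fold change over the square root of its F statistic. It is not the spread of the log2 ratios between mice. CD8 T cells had Cd3 and Cd8 UMIs and none of Cd4 or Foxp3. DESeq2 1.42.0 was an alternative. On simulated counts, the fit against conventional CD4 T cells called 5 of 40 genes raised by 1 on the log2 scale. It called 36 of 40 raised by 2, 4 of 36 lowered by 1 and 19 of 39 lowered by 2. Of 6934 unchanged genes, 2 were called. The simulated profiles shared the same mean for each unchanged gene and a common dispersion, without differences between libraries. False calls under such differences were not tested. Unchanged genes had a median fitted log2 fold change of -0.12 in this fit and of -0.24 against CD8 T cells. Against CD8 T cells, 0 of 39 genes raised by 1 and 22 of 40 raised by 2 were called. A gene without a call can thus still differ by 2-fold. Scrublet (Scanpy 1.11.5, expected doublet rate 5%) marked doublets, which stayed in. Thinning drew 1000 UMIs per cell at random. Shares have exact Clopper-Pearson intervals, sums exact Poisson intervals and ratios exact conditional binomial intervals, at 95%.

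The members, gene lists and alternatives were chosen with earlier results of these data known. Genes were named from these lists, and as the 15 highest and 10 lowest fold changes called with the same sign in 4 libraries, and the 3 highest and 3 lowest ratios between libraries. Mitochondrial, ribosomal, haemoglobin, immunoglobulin, receptor segment, sex-linked and hepatocyte genes and uncharacterised models were left out of the last 2 rules. Adding alternatives for the share's denominators, for endothelial UMIs and for single TAA libraries was decided after seeing the data. The labels carry no replicate numbers above 1, so samples were paired only through the mouse. Dense text tables of the same libraries were not used.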

Additional observations from a re-analysis of the deposited data

Results flagged for a closer look

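In 3 genes that were called between Foxp3 T cells and conventional CD4 T cells, the control library went against all 3 TAA libraries. The control log2 ratio was -0.59 for Gzmb, from 2 UMIs of 1 Foxp3 cell, and was above 0 in TAA, TAA+C7.5 and TAA+C30. For Bhlhe40 it was 1.09 and for Fosb 0.53, both below 0 in the 3 TAA libraries. The difference between control and the TAA libraries was not tested, and the control value rests on 6 Foxp3 cells.

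Signal was also seen in cells that were not members. Foxp3 UMIs were found in 6 T cells with Cd8 UMIs. Among Foxp3-negative T cells without Cd8 UMIs, 101 of 2232 had both Ctla4 and Ikzf2 UMIs, 22 in TAA, 25 in TAA+C7.5, 44 in TAA+C30 and 10 in control. Of these 101 cells, 29 had a Cd4 UMI and so stood among the conventional CD4 T cells of the contrast. They were 4, 7, 13 and 5 cells in the same order.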

How the results depend on the processing

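Shares, in the order TAA, TAA+C7.5, TAA+C30 and control, moved most. They were 2.66%, 0.497%, 1.90% and 1.47% with at least 2 Foxp3 UMIs, 1.24%, 0.673%, 1.61% and 1.03% after thinning, and 2.85%, 0.621%, 1.26% and 1.77% with a Cd4 UMI needed. Of all cells kept they were 0.415%, 0.230%, 0.388% and 0.104%, and of T cells with Cd8 cells included 2.62%, 0.693%, 1.78% and 1.08%. Of Cd4-positive T cells they were 8.29%, 3.76%, 5.88% and 6.67%. Of Foxp3 and conventional CD4 T cells they were 14.0%, 9.86%, 15.8% and 6.67%, or 12.5%, 10.3%, 17.2% and 11.5% after thinning. With Ctla4 and Ikzf2 accepted in place of Foxp3 they were 9.32%, 4.84%, 10.7% and 4.72%.

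Against conventional CD4 T cells, 95 genes were higher and 204 lower. Counts became 168 and 115 with library totals (59.4% of calls higher, against 31.8%), 54 and 61 with no replicate block, where the pairing of the populations by mouse is dropped, and 31 and 76 after thinning. The higher genes fell to 46 with at least 2 Foxp3 UMIs and 45 with a Cd4 UMI needed, and the lower genes to 51 by DESeq2 and 81 with filterByExpr. Leaving out 1 library gave 74 to 104 higher and 118 to 153 lower genes. Against CD8 T cells, 191 higher and 478 lower genes became 389 and 197 with totals. The lower genes became 172 by DESeq2, 296 with filterByExpr, 304 with no replicate block and 283 to 374 with 1 library left out. Over 152 named or listed genes and all alternatives, 1913 values against conventional cells kept direction and call, 128 lost the call, 59 gained it and 2 reversed (Cxcl10 at -2.42 with a Cd4 UMI needed, Id3 at 0.15 after thinning). DESeq2 gave no adjusted p for 10 called genes, which are left out of these counts. Over 164 genes against CD8 T cells, 1338 values kept both, 64 lost the call, 25 gained it and 4 reversed, with Top2a at -2.87 and Stmn1 at -2.51 with cells of over 2 endothelial UMIs left out. With 1 library left out they ran from -2.54 (without TAA+C30) to 0.73 for Top2a and from -2.02 (without TAA+C30) to 0.84 for Stmn1. The cause of these changes was not tested.

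Between libraries, the pooled TAA libraries against control had 293 genes at least 2-fold higher with 50 CPM added, 845 higher and 24 lower with TMM, 229 higher with at least 2 Foxp3 UMIs, and 1787 and 446 with a minimum of 5 UMIs. TAA, TAA+C7.5 and TAA+C30 alone against control had 237, 48 and 163 higher. TAA+C7.5 against TAA had 142 lower with 50 CPM added, 14 higher with TMM, 9 higher with at least 2 Foxp3 UMIs, and 319 and 909 with 5 UMIs. TAA+C30 against TAA had 40 and 52 with 50 CPM added, 67 lower with at least 2 Foxp3 UMIs, and 429 and 667 with 5 UMIs. Shares of cells with a Ctla4 UMI were 92.6%, 92.9% and 83.3% in the TAA libraries without thinning and 75.0% in TAA+C30 at 1500 UMIs. That of Il2ra in TAA+C30 was 45.8% without thinning. At 1500 UMIs Ikzf2 was found in 91.7% of TAA+C7.5 cells and Il1rl1 in 0% of TAA cells. Depth limits all of these: 14 and 6 cells stand behind TAA+C7.5 and control.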
